A study of Rattus norvegicus with 4 samples.

Results

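The genes described here were grouped as coding for proteins of pancreatic juice or of the acinar cell's secretory granules, though the probes for 2 of the 8 did not rise above background in this tissue. They are the carboxypeptidases Cpa1 and Cpb1, the ribonuclease Rnase1, the zymogen granule proteins Gp2, Sycn and Zg16, and, at background, the deoxyribonuclease Dnase1 and the probe listed as the kallikrein Klk1. They were chosen by gene symbol, and all 8 were found among the 26541 genes of the array, each as 1 probe printed in 1 spot. The symbols of the 8 are those of the authors' deposited tables, whereas other genes carry the name that RefSeq gives to the accession on the array, where it gives one.

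RNA was pooled from the pancreases of 6 male Sprague-Dawley rats per diet after 3 weeks of feeding. By the labels, the iron-deficient diet (FeD) held 5 ppm iron, the iron-adequate diet (FeA) 35 ppm and the iron-overload diet (FeO) 20275 ppm. The labels give no age. The FeD pool was set against the FeA pool on arrays 1 and 2, and the FeO pool against the same FeA pool on arrays 3 and 4, all on 1 slide. The diet pool carried Cy5 on arrays 1 and 3 and Cy3 on arrays 2 and 4. The RNA on the swapped array is the same as on its partner, so each diet is 1 replicate, the SD given with a value is the spread of 2 technical measurements, and the diets could not be tested.

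Acinar cells store digestive enzymes in zymogen granules, many but not all as inactive precursors, and release them into the duct when a meal triggers secretion. In the gut, trypsin cuts procarboxypeptidases into active enzymes, which then remove single amino acids from the carboxyl end of peptides. Pancreatic ribonuclease and deoxyribonuclease digest nucleic acids of the food, while syncollin, Zg16 and Gp2 belong to the granule itself, as content or as membrane-bound protein.

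Of the 8 genes, 6 were well above background by the scanner software's criterion in every channel of all 4 arrays. The median spot signals of these 6 lay between 255912 and 765638 intensity units in Cy5, where the median local background of an array was 82 to 87 units. In Cy3 their signals lay between 115529 and 409513 units, over a median local background of 50 to 57 units. Dnase1, which codes for the secreted deoxyribonuclease, was not well above background in any channel, with signals of 106 to 121 units in Cy5 and 73 to 83 units in Cy3. Neither was the probe that the deposited tables call Klk1, at 98 to 120 units in Cy5 and 70 to 76 units in Cy3. That probe carries the accession of the gene now named Klk1c12 in RefSeq, whereas the gene now named Klk1, a tissue kallikrein that frees kinins from kininogen, is the probe the tables call Klk1l.

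The Cy5 signal reached the ceiling of the scanner in 5 of the 6 bright genes on at least 1 array, and the Cy3 signal in none of them. Sycn, a granule content protein, was saturated in Cy5 on all 4 arrays. Zg16 and Rnase1 were saturated in Cy5 on arrays 1, 2 and 3, Cpb1 on arrays 2 and 3, and Cpa1 on array 2 alone. Gp2, the main glycoprotein of the granule membrane, was saturated on none. Before scaling, a saturated diet signal on arrays 1 and 3 makes a ratio too small. A saturated FeA signal on arrays 2 and 4 makes it too large, so the 2 dye positions err in opposite directions. Ratios after loess are not bounds. On the arrays as a whole, 25 probes were saturated at least once, all in Cy5, with 20 probes on array 1, 20 on array 2, 19 on array 3 and 14 on array 4. Besides the 5 genes named here they included 11 genes of other pancreatic digestive enzymes, so saturation fell mostly on acinar secretory genes.

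The spots of Cpa1 and Gp2 on array 4 were marked as outliers by the scanner software and were left out, which leaves array 3 alone for these genes in FeO. No other spot of the 8 genes was marked on any array. The mark is given to a spot with uneven pixels or, among replicate spots, to one that departs from the rest.

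The comparison of FeD with FeA asks how the pancreatic transcripts of iron-deficient rats differ from those of rats with enough iron. None of the 6 bright genes reached a mean log2 ratio of 1 in size, with a median of 0.17 beside 0.01 for the 15755 genes that passed the filter on dim probes. From single arrays the median was 0.068 on array 1 and -0.015 on array 2, so its sign was not the same on both. Their means lay between -0.23 and 0.33, most of them resting on saturated signals. Only Gp2, higher in FeD, and Cpb1, lower in FeD, had the same sign on both arrays. In pooled tissue, fewer cells of a type and less RNA per cell cannot be told apart.

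Cpb1, the carboxypeptidase that removes basic residues, had log2 ratios of FeD over FeA of -0.13 on array 1 and -0.33 on array 2, a mean of -0.23 (SD 0.14, n = 2 arrays). Cpa1, which removes aromatic and aliphatic residues, had -0.34 and 0.09, a mean of -0.12 (SD 0.30, n = 2 arrays). The mean of Cpa1 was smaller than the spread of its arrays, and that of Cpb1 larger. The FeA channel of array 2 was saturated for both genes, which makes a ratio too large before scaling. After loess the direction and size of that error are not known. With median centring array 2 gave -1.21 for Cpb1 and -0.79 for Cpa1.

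Rnase1, the pancreatic ribonuclease, had log2 ratios of -0.00 on array 1 and 0.35 on array 2, a mean of 0.18 (SD 0.25, n = 2 arrays). Both arrays were saturated in Cy5, on the FeD side of array 1 and on the FeA side of array 2. Gp2, with no saturated channel, had 0.14 and 0.21, a mean of 0.17 (SD 0.05, n = 2 arrays).

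Sycn codes for syncollin, a small protein of the granule lumen with a part in regulated exocytosis. It had log2 ratios of 0.79 on array 1 and -0.12 on array 2, a mean of 0.33 (SD 0.64, n = 2 arrays). Zg16, a lectin-like protein of the granule matrix, had 0.70 and -0.36, a mean of 0.17 (SD 0.75, n = 2 arrays). For both genes the pool in Cy5 gave the higher value on each array, and the mean was smaller than the spread.

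No member was past a log2 ratio of 2 in FeD, where 0.102% of the 15748 genes measured on both arrays were, and none was past 1 in either direction, where 0.114% were higher and 0.241% lower. On both arrays, 1 of the 6 bright genes was higher than in FeA, against 25.2% of all genes, and 1 was lower, against 21.7%. The other 4 had opposite signs on the 2 arrays, against 53.1% of all genes. These shares do not set the group apart from the genes of the array as a whole.

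**Figure D1:**
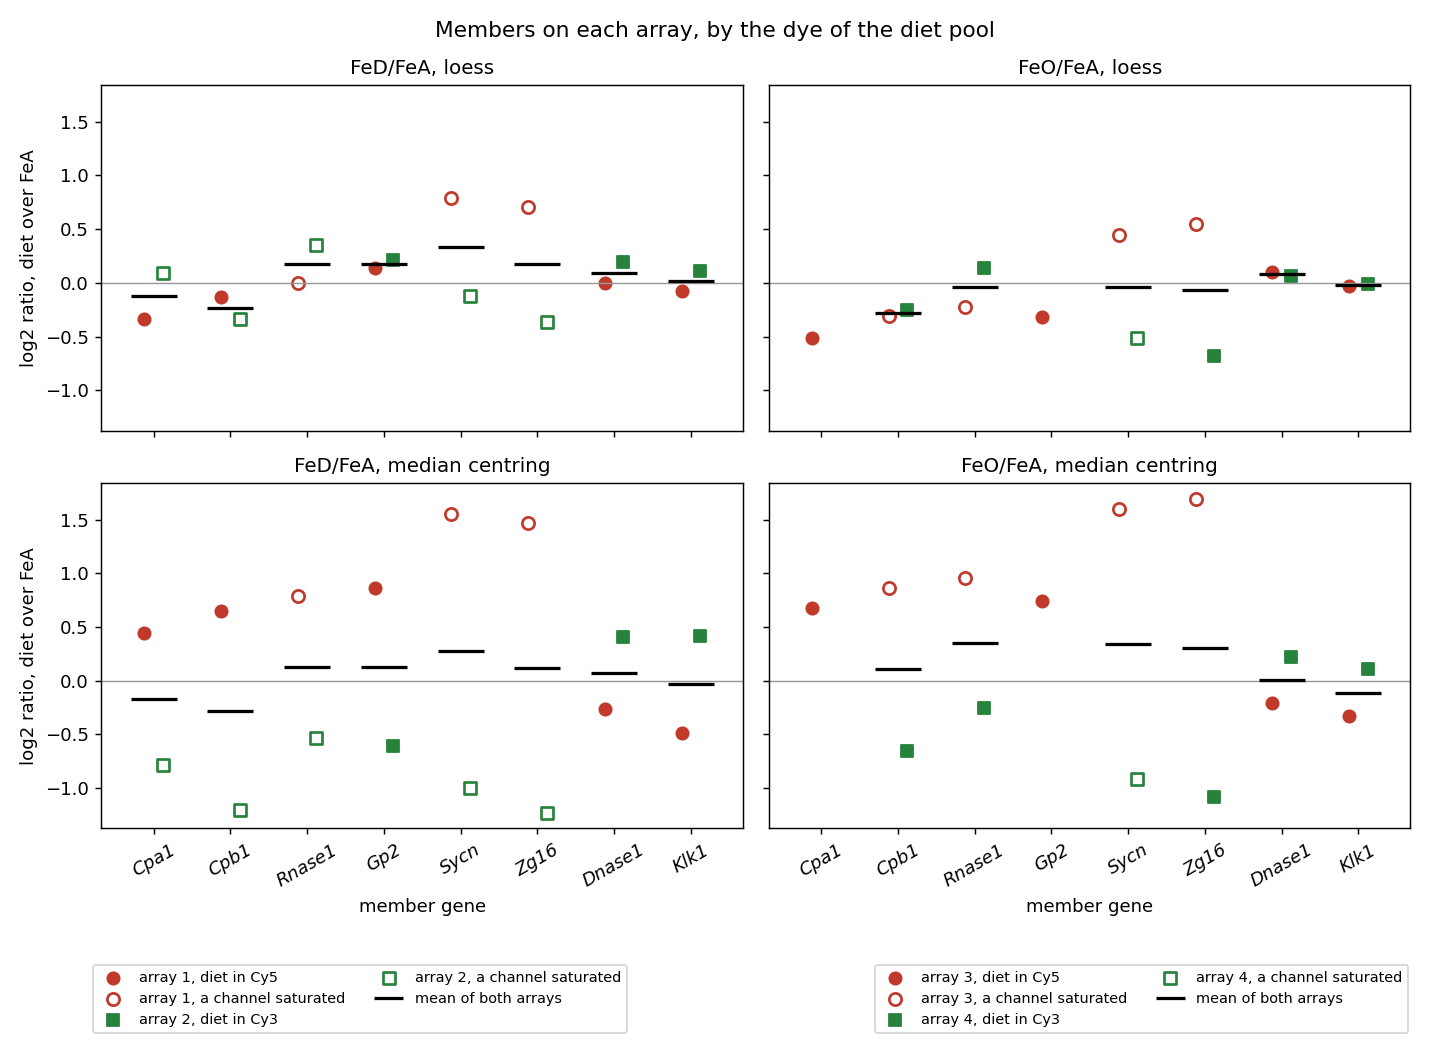
Log2 ratio of the diet pool over FeA for each of the 8 genes, with loess in the upper panels and median centring in the lower ones; circles are the array with the diet in Cy5, squares the array with the diet in Cy3, open symbols spots with a saturated channel, and bars the mean of both arrays. With median centring the circles of all 6 bright genes lie above 0 and their squares, where measured, below 0, whereas with loess only those of Sycn and Zg16 do so in both comparisons.

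The comparison of FeO with FeA asks the same of iron overload. The 6 bright genes lay below 0 in FeO, between -0.51 and -0.04, with a median of -0.18 beside 0.01 for the 16487 genes that passed, but with median centring in place of loess every one of them was above 0 and the median was 0.34. From single arrays with loess the median was -0.27 on array 3, over 6 genes, and -0.39 on array 4, over 4. Over the 4 genes measured on both arrays the median of the means was -0.06 with loess and 0.32 with median centring. None reached a log2 ratio of 1 in size. Cpb1 alone was lower on both arrays, and 2 of the 6 values, those of Cpa1 and Gp2, came from array 3 alone. Because the direction depends on the scaling, no fall of these transcripts in FeO can be read from these arrays.

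Cpb1 had log2 ratios of FeO over FeA of -0.31 on array 3 and -0.26 on array 4, a mean of -0.28 (SD 0.04, n = 2 arrays), and 0.11 with median centring. Cpa1 had -0.51 on array 3. With its outlier spot kept, array 4 gave 0.19 for Cpa1 and the mean became -0.16, so the size of its difference rested on that spot.

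Rnase1 had log2 ratios of -0.23 on array 3 and 0.14 on array 4, a mean of -0.04 (SD 0.26, n = 2 arrays). Gp2 had -0.32 on array 3, and the outlier spot on array 4 gave -0.27. The arrays of Gp2 thus had the same sign under loess, whereas those of Rnase1 straddled 0.

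Sycn had log2 ratios of 0.44 on array 3 and -0.51 on array 4, a mean of -0.04 (SD 0.68, n = 2 arrays). Zg16 had 0.55 and -0.68, a mean of -0.07 (SD 0.87, n = 2 arrays). As in FeD, each array gave the higher value to the pool labelled with Cy5, and the mean of both arrays was far smaller than their spread.

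In FeO, 0 members were past a log2 ratio of 2, where 0.176% of the 16448 genes measured on both arrays were, and 0 were past 1, where 0.608% were higher and 0.468% lower. Of the 4 bright genes measured on both arrays, 0 were higher on both, against 28.1% of all genes, and 1 was lower on both, against 24.2%. The other 3 had opposite signs, against 47.8% of all genes. With 4 genes these shares set nothing apart. Since no member was past 1, no genes of like pattern are named.

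The probes of Dnase1 and Klk1 give no information on the diets, as their signal did not rise above background. Their ratios over the 4 arrays lay between -0.08 and 0.19. The gene now named Klk1, listed as Klk1l, was well above background in all 8 channels and had 0.00 and 0.19 in FeD, a mean of 0.10 (SD 0.13, n = 2 arrays). In FeO it had -0.13 and -0.16, a mean of -0.15 (SD 0.02, n = 2 arrays), and 0.12 with median centring.

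The swapped arrays lay far apart for Sycn and Zg16 and less so for the other bright genes. For Sycn, the difference between arrays divided by 2 was 0.45 in FeD and 0.48 in FeO, and 1.93% and 2.04% of genes had a larger one. For Zg16 it was 0.53 and 0.62, and 0.87% and 0.553% of genes had a larger one. Saturation in Cy5 narrows a difference of this sign before scaling. The differences and shares given here were taken after loess, so they are not bounds. The median over all genes was 0.11 in each comparison. Cpb1 had 0.10 and 0.03, and 53.2% and 86.6% of genes had a larger one. A larger gap than that of Rnase1 was found in 28.7% of genes in each comparison, than that of Cpa1 in 20.5% and than that of Gp2 in 82.0%, both in FeD. All of these but that of Gp2 include saturated signals and are not exact. The ratio of diet over FeA was higher on the array with the diet in Cy5 than on the swapped array in 84.0% of 25 saturated probes in FeD and 86.7% of 15 in FeO. Among all probes that passed the filter this held for 49.7% and 47.3%. Among unsaturated probes read at the low scanner gain in all 8 channels, the gain at which the bright members were read, it held for 55.6% of 268 and 50.6% of 243. Saturation was in Cy5 alone, so the saturated probes were picked by a high Cy5 signal on these same arrays. The unsaturated ones were picked by its absence. Their shares were in part fixed by that choice, and nothing is concluded from the contrast.

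**Figure D2:**
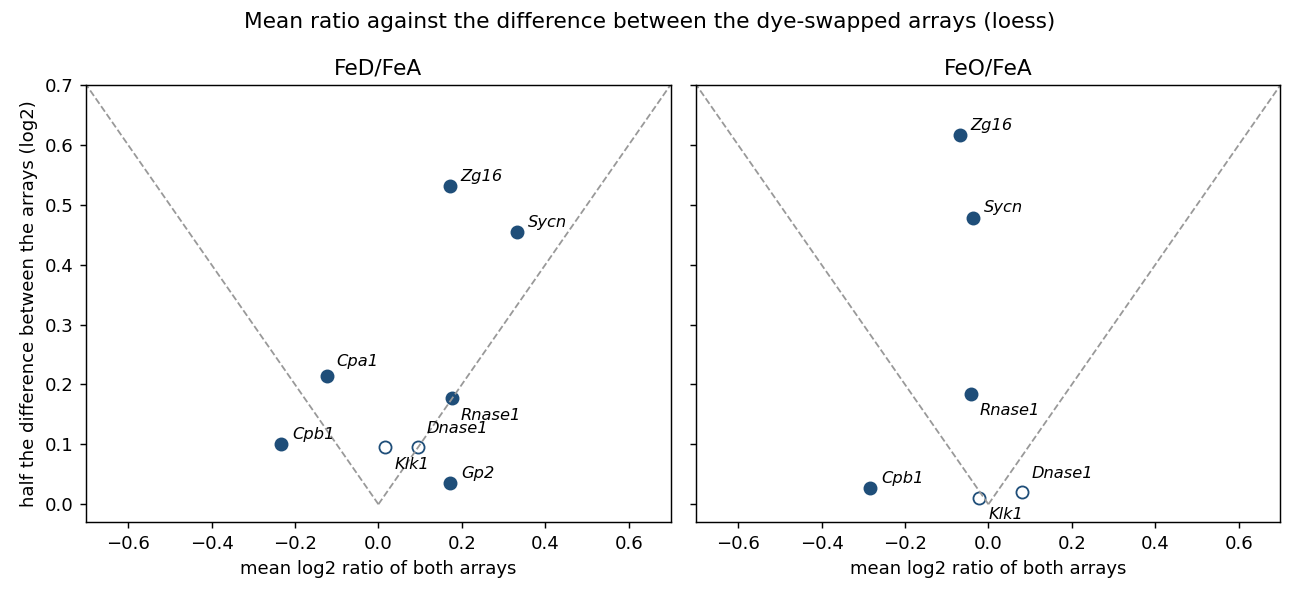
Mean log2 ratio of both arrays on the horizontal axis against the difference between the dye-swapped arrays divided by 2 on the vertical axis, after loess; filled points passed the filter on dim probes, open points did not, and on the dashed lines the mean equals that difference. Sycn and Zg16 lie above the lines in both comparisons, Cpb1 below them, and Cpa1 and Gp2 have no point in FeO, where 1 of their spots was left out.

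Loess and median centring gave different pictures of each array. With median centring, the pool in Cy5 was higher for all 6 bright genes on every array where they were measured. For Sycn the ratios were 1.55 on array 1, -1.0 on array 2, 1.60 on array 3 and -0.91 on array 4. For Zg16 they were 1.47, -1.23, 1.70 and -1.08. The same held for the genes that loess brought close to 0, such as Cpb1 with 0.65, -1.21, 0.87 and -0.65. Rnase1 had 0.79, -0.53, 0.95 and -0.26 with median centring, Cpa1 had 0.44, -0.79 and 0.67 on arrays 1 to 3, and Gp2 had 0.86, -0.61 and 0.74.

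In FeD the swapped arrays offset each other, and the means under median centring were -0.17 for Cpa1, -0.28 for Cpb1, 0.13 for Rnase1, 0.13 for Gp2, 0.28 for Sycn and 0.12 for Zg16, each close to its loess value and with the same sign. In FeO the offset was incomplete, and the means were 0.11 for Cpb1, 0.35 for Rnase1, 0.34 for Sycn and 0.31 for Zg16, each with the opposite sign. Cpa1 and Gp2, with 1 array each, turned to 0.67 and 0.74, and a mean that lacks the swapped array carries the dye difference whole.

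Each channel can also be read alone, setting the diet on its array of that dye against FeA on the arrays of the same dye, at the cost of comparing across arrays. Sycn gave Cy3 signals of 166214 and 169064 units for FeA, 274587 for FeD and 319238 for FeO, and Cy5 signals of 750156 to 765638 units, at the ceiling, for every pool. With channels scaled to their 75th percentile, the Cy3 log2 difference of Sycn was 0.85 in FeD and 0.90 in FeO, while its Cy5 difference was -0.45 and -0.23. With quantile scaling the Cy3 differences were 0.55 and 0.77 and the Cy5 differences -0.03 and 0.03. All Cy5 values of Sycn come from saturated signals, so no direction is read from them.

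For Zg16, the Cy3 difference was 0.57 in FeD and 0.42 in FeO with the 75th percentile, and 0.21 and 0.28 with quantiles. Its Cy5 differences were -0.26 and -0.04, and 0.13 and 0.13. The Cy5 values of Zg16 on arrays 1, 2 and 3 come from saturated signals, so no direction is read from these differences either. Gp2, unsaturated, had Cy3 differences of 0.21 and 0.00 in FeD, and lacks a Cy5 value because that channel needs its outlier spot on array 4.

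Leaving out saturated spots removed Sycn altogether and left Zg16 and Rnase1 with array 4 alone. The median of the group was then -0.12 in FeD and -0.32 in FeO, over fewer genes. For the genes that differed most between arrays, Sycn and Zg16, no mean ratio of both arrays was thus free of saturation, though their Cy3 signals were.

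Among genes related to the members, few were past a log2 ratio of 1. The other carboxypeptidases of the same family had a median of 0.02 in FeD, and 0.06 with median centring, over 10 of 15 genes that passed the filter, with 2 higher and 2 lower on both arrays. They ranged from Cpe, which trims prohormones in endocrine cells, at -0.26 to Cpxm1 at 0.18. In FeO, 12 passed with a median of 0.11, and 0.20 with an offset of 0, 6 higher and 4 lower on both arrays, and the highest was Cpa3, the mast cell carboxypeptidase, at 0.92. None of the list was past 1 in the reported setting, but Cpa3 had 1.32 in FeO with the processed signals and 1.19 with an offset of 0. The genes Cpb2, Cpm and Cpn2 were not well above background in either comparison.

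Of 14 other genes of the ribonuclease A family and its inhibitor, 8 passed in each comparison. In FeD their median was -0.02, with 1 higher and 4 lower on both arrays, from Ang at -0.71 to Rnase6 at 0.32. In FeO the median was -0.33, and -0.18 with median centring, with 0 higher and 5 lower on both arrays among 7 measured on both, and the highest was Rnase6 at 0.10. With the processed signals the median in FeD was -0.23. The 2 genes past 1 in FeO, which the authors' tables call Ang1 and Ang and RefSeq Ang and Ang2, code for angiogenins, secreted ribonucleases that act on transfer RNA and on blood vessel growth. Ang had log2 ratios of -1.51 and -0.99 in FeO, a mean of -1.25, and Ang2 had -1.42 and -0.80, a mean of -1.11, or -0.90 with median centring, which is not past 1. In FeD, Ang had -0.92 and -0.50, and Ang2 had -0.90 and -0.38, a mean of -0.64. The angiogenins were thus lower than FeA on all 4 arrays, and their means were negative with median centring as well, while pancreatic Rnase1 had both signs. Rnase1 was saturated in 3 channels and the angiogenin probes in 0, so they were not measured alike, and no difference between them is read.

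The other deoxyribonucleases had a median of 0.05 in FeD, 0.00 with median centring and 0.10 with the processed signals, over 5 of 6 genes, with 2 higher and 1 lower on both arrays. They ranged from Dnase2, the lysosomal enzyme, at -0.05 to Dnase1l3 at 0.38. In FeO their median was -0.11, and -0.02 with median centring, with 2 higher and 3 lower, from Dnase1l3 at -0.51 to Dffb, the nuclease of apoptotic cells, at 0.09. Dnase1l3, made by macrophages and dendritic cells, had 0.38 and 0.38 on the arrays of FeD and -0.43 and -0.59 on those of FeO. Dnase2b was not well above background.

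Among 23 other genes of the kallikreins and the kinin system, 10 passed in FeD with a median of 0.00, and the median was -0.05 with the processed signals. They ranged from Klk1c2 at -0.19 to the kinin receptor Bdkrb2 at 0.16, with 4 higher and 3 lower on both arrays. Klk1c2 was not well above background in the FeD pool, so it is only known to be at least 1.14-fold lower. With the processed signals it had -0.92. In FeO, 9 passed with a median of -0.08, and 0.06 with median centring, with 2 higher and 5 lower, from Klk4 at -0.19 to Klk1c10 at 0.10. The kininogen genes Kng1 and Kng2 and plasma kallikrein Klkb1, all made in liver, were among 13 genes not well above background.

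Other genes of the zymogen granule, for content, membrane and exocytosis, showed no common direction. In FeD, 19 of 21 passed with a median of 0.01, and -0.05 with median centring, with 5 higher and 6 lower on both arrays, from the syntaxin Stx4 at -0.22 to Umod, which is related to Gp2, at 0.33. In FeO, 21 passed with a median of -0.06, with 3 higher and 6 lower among 20 measured on both arrays. They ranged from Serpini2, a protease inhibitor of the pancreas, at -0.50 to Cuzd1, a granule membrane protein, at 0.31.

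The other digestive enzymes and their cofactors, the main cargo of the granule, had a median of -0.02 in FeD, over 21 genes with 6 higher and 1 lower on both arrays and 14 of opposite sign. They ranged from Prss3, a trypsinogen, at -0.54 to Ctrb1, chymotrypsinogen B, at 0.60, but Ctrb1 was saturated in Cy5 on all 4 arrays, so its exact ratio is not known. In all, 11 of the 21 were saturated at least once. In FeO their median was -0.29, with 2 higher and 10 lower among 14 measured on both arrays, but it was 0.11 with median centring. Over the 14 genes alone it was -0.40 with loess and -0.04 with median centring, so the value above 0 rested on the 7 genes with 1 array. Prss3, which has another symbol in the authors' tables, was past 2 in FeO, with log2 ratios of -1.93 and -2.63 and a mean of -2.28, but not with median centring, which gave -1.95, and the highest was the trypsin inhibitor Spink3 at 0.62. The probe called Prss3 in those tables is Prss3b in RefSeq and had -0.21 in FeO, from array 3 alone. Another probe called Spink3 there is Spink1 in RefSeq and had -0.12 in FeO, also from array 3 alone.

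The acinar transcription factors and secretagogue receptors, which control and trigger this output, had a median of -0.10 in FeD, and -0.17 with median centring, over 9 of 10 genes, with 3 higher and 2 lower on both arrays. They ranged from Xbp1, a factor of the secretory pathway, at -0.54 to Gata4 at 0.38. In FeO the median was 0.00, with 3 higher and 2 lower, from Ptf1a, which drives acinar enzyme genes, at -0.71 to Gata4 at 0.46. Ptf1a had -0.30 and -0.36 in FeD and -0.76 and -0.66 in FeO. The muscarinic receptor gene Chrm1 was not well above background.

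**Figure D3:**
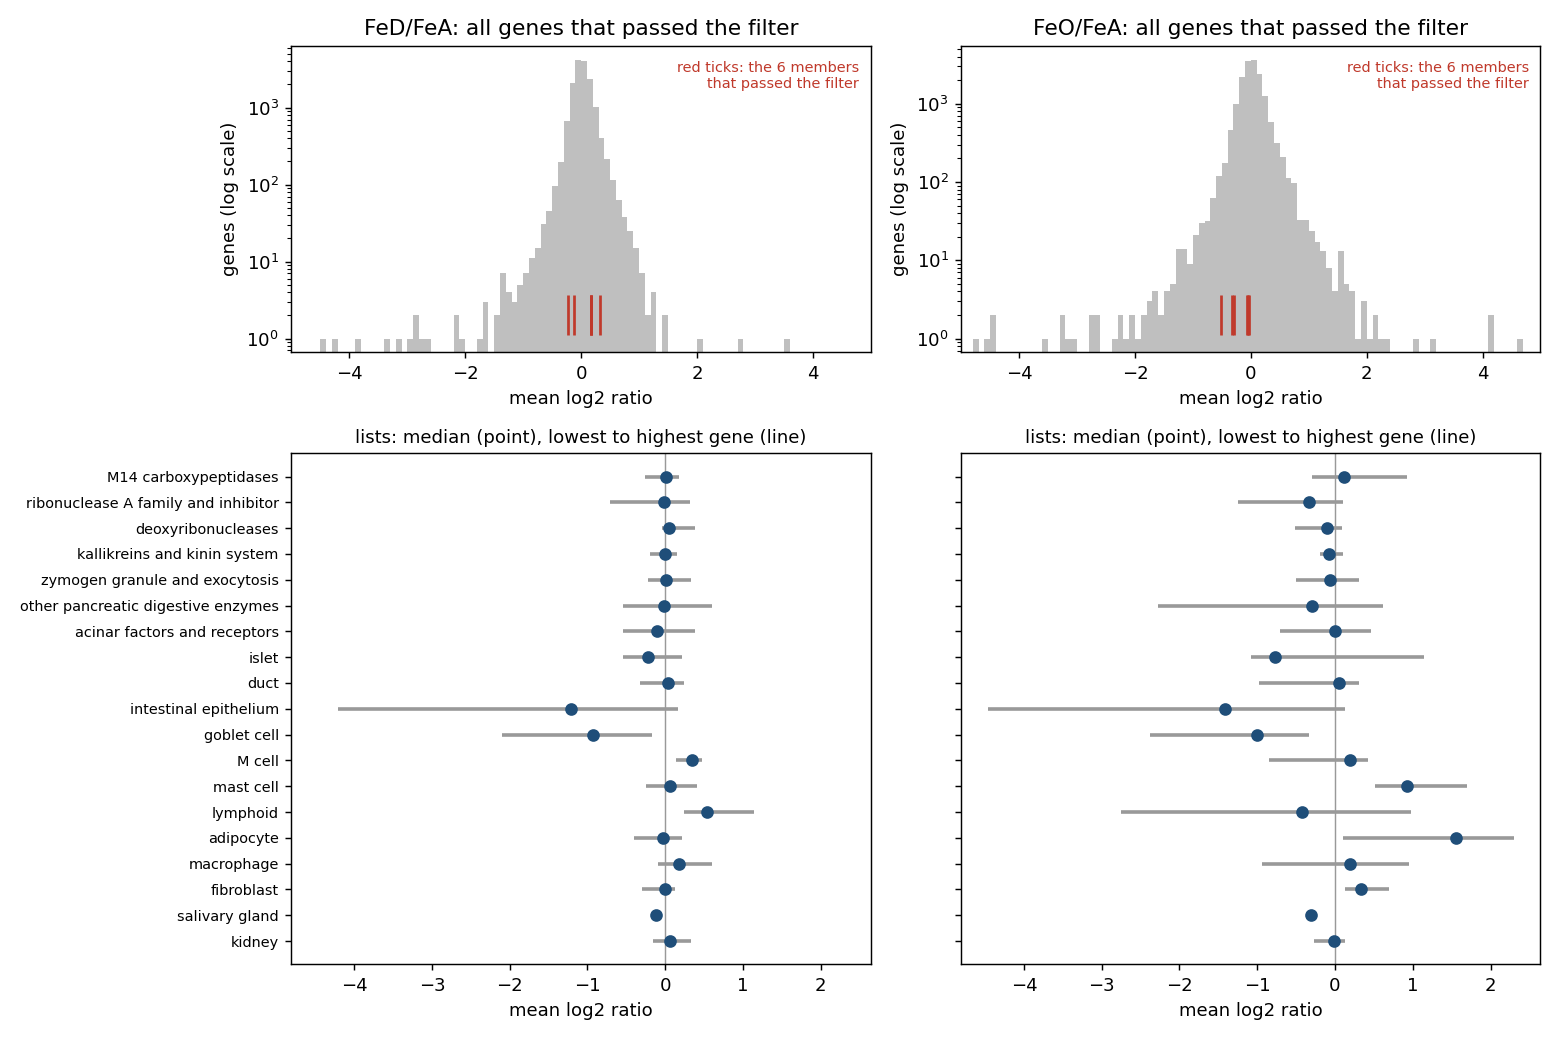
Upper panels: numbers of genes (log scale) by mean log2 ratio for all genes that passed the filter, with the 6 bright members as red ticks, 2 of them from array 3 alone in FeO; lower panels: the median of each gene list as a point and its lowest to highest gene as a line, with genes not well above background in 1 pool at their fitted ratio. The members lie between -0.51 and 0.33, while the intestinal list reaches -4.21 in FeD and the adipocyte list 2.30 in FeO.

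Some markers of other cell types differed between the pools by more than any of the 8 genes did. Their part in the members' values was not tested. Calls past 1 are those of the reported setting, and with the processed signals or an offset of 0 more genes of the lists had means past 1. Summed levels are channel intensities of a list's probes after loess and Aquantile scaling, and no list median was altered at 2 decimals when genes seen in 1 pool alone were set to their bound.

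Intestinal epithelial markers were lower in both diet pools than in FeA, with a median of -1.21 in FeD and -1.42 in FeO, and of -1.68 and -2.16 with the processed signals. In FeD, 10 of 12 genes were lower on both arrays and 7 were past 1, from Fabp1, a fatty acid carrier, at -4.21 to Cdx1 at 0.16. Lgals4 had -2.18, Cdh17 -1.61, Alpi -1.37 and Krt20 -1.16 in FeD. The value of Alpi is the mean of 2 probes that disagreed, at -0.34 and -2.41 in FeD and -0.29 and -2.58 in FeO, so it was past 1 through 1 probe alone. Not well above background in FeD, Fabp2 was at least 6.76-fold lower and Cdhr5 at least 2.39-fold. In FeO, 9 of 12 were lower on both arrays and 7 were past 1, with Lgals4 at -3.59, Krt20 at -1.74, Alpi at -1.43 and Cdx1 the highest at 0.13. Fabp1 was at least 21.8-fold, Fabp2 at least 6.32-fold, Cdh17 at least 3.54-fold and Cdhr5 at least 2.63-fold lower in FeO. The list's summed level was 5228 in FeD against 11310 in FeA on array 1 and 6191 against 11660 on array 2. On arrays 3 and 4 it was 4380 in FeO against 11120 in FeA and 5304 against 11400. The brightest probe was that of Cdx1, and Slc5a1, the glucose carrier of enterocytes, was not well above background.

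Goblet cell markers followed the same direction, with a median of -0.93 in FeD and -1.0 in FeO. The medians were -2.28 and -2.50 with the processed signals and -1.54 and -1.79 with an offset of 0. In FeD, 7 of 8 were lower on both arrays and 4 were past 1, with Tff3, a mucus-associated peptide, at -2.10, Guca2a at -1.38, Clca1 at -1.0 and Fcgbp the highest at -0.17. In the FeD pool Agr2 was at least 3.14-fold lower, and in the FeO pool at least 3.24-fold. In FeO, 8 of 8 were lower and 4 were past 1, with Tff3 at -2.38, Guca2a at -1.83, Clca1 at -1.11 and Muc2 the highest at -0.33, over probes at -0.60 and -0.05. The summed level was 3185 in FeD against 4730 in FeA and 3434 against 4892, and 2562 in FeO against 4300 and 2839 against 4503. Without background subtraction Clca1 was at -0.87 in FeD and -0.98 in FeO, not past 1. The brightest probe was that of Spdef, and Retnlb was not well above background.

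Lymphoid markers were higher in FeD, 11 of 11 on both arrays with a median of 0.53, from Cd2 at 0.24 to Glycam1, a ligand on vessels of lymph nodes, at 1.15. In FeO, 6 of 9 were lower on both arrays with a median of -0.43, from Glycam1 at -2.75 to Cxcl13 at 0.98. With the processed signals the medians were 0.97 and -0.85. The summed level was 8786 in FeD against 4712 in FeA and 7530 against 4580, and 2810 in FeO against 4451 and 3008 against 4968. The brightest probe was that of Glycam1, and every gene of the list was well above background in at least 1 comparison.

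Adipocyte markers were higher in FeO, 6 of 7 on both arrays, with a median of 1.55 and 5 past 1. Cfd, the protease adipsin, had 2.30, Adipoq 2.07, Cidec 1.92, Pck1 1.55 and Fabp4 1.47, and Lep was the lowest at 0.10. In FeD the median was -0.03, with 1 higher and 3 lower, from Cfd at -0.40 to Adipoq at 0.21. The summed level was 37630 in FeO against 11930 in FeA and 37260 against 10780, and 9688 in FeD against 11610 and 8565 against 9243. The probe of Cfd was the brightest.

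Mast cell markers were higher in FeO, 7 of 7 on both arrays, with a median of 0.92, which was 1.61 with the processed signals, and the proteases Cma1 at 1.69, Tpsab1 at 1.1 and Tpsb2 at 1.08 past 1, though Tpsb2 was at 0.91 without background subtraction, and Kit the lowest at 0.52. Cpa3 is in this list and in that of the carboxypeptidases. In FeD, 6 passed with a median of 0.07, 3 higher and 2 lower, from Mcpt1 at -0.25 to Kit at 0.41. The summed level was 1973 in FeO against 1081 in FeA and 2055 against 1096, and 1117 in FeD against 1023 and 1005 against 939.2. The probe of Kit was the brightest, and Ms4a2, a chain of the IgE receptor, was not well above background.

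Islet markers had a median of -0.22 in FeD, over 7 genes with 1 higher and 3 lower on both arrays, from Iapp at -0.55 to Ppy at 0.22. In FeO, 6 of 7 were lower with a median of -0.77, Ppy at -1.08 and Iapp at -1.02, while the glucagon gene Gcg was higher at 1.14. With median centring the median in FeO was -0.48, Ppy was at -0.95 and Iapp at -0.96, neither past 1, and without background subtraction Iapp was at -0.995. The summed level was 125800 in FeO against 252100 in FeA and 142900 against 218500, and 163500 in FeD against 238400 and 176800 against 202400. The probe of the insulin gene Ins1 was the brightest, and Pax6 was not well above background.

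No gene of the remaining marker lists was past 1 in the reported setting. With the processed signals, Tnfaip2, an M cell marker, had 1.37 in FeD, beside 0.38 as reported. In FeO, Marco had -1.79, Cd163 1.51, Spib -1.27, Krt19 -1.22 and the duct marker Spp1 -1.0 with those signals, and the means of the first 4 exceeded 1 in size with an offset of 0 as well. Duct markers had a median of 0.04 in FeD, from Krt19 at -0.33 to Sox9 at 0.24, and of 0.05 in FeO, from Krt19 at -0.98 to Onecut1 at 0.30, though -0.17 with the processed signals. Fibroblast markers had a median of -0.01 in FeD, from Col1a2 at -0.30 to Pdgfra at 0.13. In FeO their median was 0.34, with 5 of 6 higher on both arrays, from Lum at 0.12 to Col3a1 at 0.69.

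Macrophage markers had a median of 0.18 in FeD, from Marco at -0.09 to Lyz2 at 0.60, and of 0.19 in FeO, from Marco at -0.93 to Cd163 at 0.95. Markers of the M cell, an epithelial cell type over lymphoid tissue in which Gp2 is also found, had a median of 0.34 in FeD, from Anxa5 at 0.13 to Spib at 0.47. In FeO their median was 0.20, from Spib at -0.84 to Anxa5 at 0.42, with 2 of 4 genes higher and 1 lower on both arrays, and 0.34 with the processed signals. Ccl20 of this list was not well above background.

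Kidney markers, with Umod in this list as well as in that of the granule, had a median of 0.07 in FeD, from Slc12a1 at -0.15 to Umod at 0.33. In FeO their median was -0.01, and -0.20 with the processed signals, from Slc12a1 at -0.27 to Nphs1 at 0.13. Of the salivary gland markers, kept beside the kallikreins, Car6 alone was well above background, with -0.12 in FeD and -0.30 in FeO, and -0.49 and -0.65 with the processed signals. The kidney gene Slc34a1 was not well above background, nor were the salivary genes Bpifa2, Csn3, Oprpn and Smr3b.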

How the data were processed

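Per the file headers, the authors obtained the intensity values with Agilent Feature Extraction 10.1.1.1. Median signals of spots and of their surroundings carry no correction, while processed signals had background subtraction, detrending and dye normalization. The flags of saturation, outliers and signal well above background, as deposited, are other values of 0 or 1 per spot. Of the authors' deposited tables, the probe names, accessions and symbols were used, and the fold changes and p-values were not.

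In R 4.3.3, limma 3.58.1 applied normexp (offset 50) and then loess within each array. Control spots were removed and outlier spots left out. Median signals stood in for mean signals, which the files lack, as decided once the files had been read. Spots of a probe were averaged, ratios of arrays 2 and 4 were turned to diet over FeA, and the 2 arrays were averaged. The further steps used Python 3.11.15, pandas 2.3.3 and numpy 2.4.6. The steps were tested on simulated data.

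A probe passed when more than 50% of its spots were well above background on both arrays in at least 1 of the 2 pools. This share was first counted over kept spots and later over all spots, after it was seen that the former drops Cpa1 and Gp2 from FeO. A gene was past a log2 ratio of 1 or 2 when its mean was and both arrays had the same sign. For a pool too dim on each of its arrays, a bound is given. It sets the brighter pool against the dimmer pool, with the dimmer raised, where lower, to the array's minimum among signals well above background. Of 30367 probes, 59.3% were named from RefSeq, 16.3% from the authors' table alone and 24.4% by the array's own name.

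The members and lists were chosen with earlier results of these data known. Named genes are the 8 members and, from each list, those past 1 in either comparison, the highest and the lowest, and defining markers not well above background. Some list genes are not reported here, though list counts and medians include them. The accession of Sycn was not in the reference table, and its name is that of the authors' table. Klk1l was described among the members after its accession was seen to be that of Klk1. The members' values under all alternatives were seen before the report was written. The reported setting was kept as first planned, apart from the use of median signals and the filter's change from kept spots to all spots. Promoter windows were searched for E-box and TC-box motifs and, outside the plan, for a TATA motif, and are not reported because the members did not move together.

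Alternatives were raw signals without background subtraction, offset 0, processed signals, median centring, outlier spots kept, saturated spots left out, the brightest probe, other filters, each array left out, and for counts the methods' test and limma's moderated test with Benjamini-Hochberg adjustment. Both tests compare RNA pools, not diets. Single-channel values, Cy3 alone or Cy5 alone, each scaled to the 75th percentile or by quantiles, were added after seeing the data. With 1 pool per diet, the number of arrays limits the precision.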

Additional observations from a re-analysis of the deposited data

Results flagged for a closer look

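Gp2 had opposite directions in the 2 comparisons, 0.17 in FeD (arrays 0.14 and 0.21) and -0.32 in FeO, where array 3 alone gives the value. The difference was not tested, both comparisons share the FeA pool, and with median centring the FeO value was 0.74.

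Klk1l, the gene now named Klk1, had a mean log2 ratio of 0.10 in FeD and -0.15 in FeO. Its arrays had the same sign within each comparison, though array 1 in FeD was at 0.0012, close to no difference. The difference was not tested. Over the alternatives the FeD value ranged from -0.01 to 0.19 and the FeO value from -0.21 to 0.18.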

How the results depend on the processing

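Signals near the scanner's ceiling in Cy5 and near background in Dnase1 and in the probe listed as Klk1, whose accession RefSeq names Klk1c12, limit what these arrays can show of the 8 genes. The members' reported values stayed under 1 in size in every alternative, though with median centring single arrays of Sycn, Zg16 and Cpb1 did not. The arrays of Zg16 spread so widely that no move of its mean exceeded them, yet its sign turned. In FeD, 0.17 was 0.70 from array 1 alone and -0.36 from array 2 alone, and in FeO, -0.07 was 0.55 from array 3, -0.68 from array 4 and 0.31 with median centring. For every other value below that moved, the cause was not tested, except that a value from 1 array or without saturated spots rests on fewer measurements.

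The members' median in FeD, 0.17, was -0.12 with saturated spots left out, 0.42 in Cy3 alone and -0.38 in Cy5 alone at the 75th percentile, and 0.073 and 0.012 with quantiles. Leaving out 1 array gave -0.015 to 0.068. In FeO, -0.18 became 0.34 with median centring, -0.32 with saturated spots left out, -0.056 with no filter, and -0.056 with the filter over kept spots. It was 0.49 in Cy3 alone at the 75th percentile, 0.21 with quantiles and 0.029 in Cy5 alone with quantiles. Leaving out 1 array gave -0.39 to -0.27.

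In FeD, Cy3 alone at the 75th percentile gave 0.26 for Cpa1, 0.0073 for Cpb1 and 0.62 for Rnase1, and with quantiles -0.45 for Cpb1 and 0.00 for Gp2. Cy5 alone at the 75th percentile gave -0.48 for Cpb1, -0.30 for Rnase1 and -0.45 for Sycn. In FeO, Cy3 alone gave 0.0745 for Cpb1, 0.57 for Rnase1 and 0.90 for Sycn at the 75th percentile, and 0.77 for Sycn with quantiles. Cy5 alone gave -0.11 for Cpb1 at the 75th percentile and 0.029 with quantiles. These single-channel values were chosen after seeing the data. So was the reported filter over all spots, which replaced the filter over kept spots.

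Median centring in FeO gave 0.67 for Cpa1, 0.11 for Cpb1, 0.35 for Rnase1 and 0.74 for Gp2. The processed signals gave -0.81 for Cpa1, -0.19 for Cpb1 and -0.32 for Gp2, and an offset of 0 gave -0.43, -0.24 and -0.26. Raw signals gave -0.50 for Cpa1 and -0.31 for Gp2, outlier spots kept -0.16 and -0.29, and saturated spots left out -0.51 and -0.32. Some settings gave no value. With saturated spots left out these were Sycn in both comparisons and Rnase1 and Zg16 in FeD. Cpa1 and Gp2 had none in FeO without array 3, in either channel alone or with the filter over kept spots, and none in FeD in Cy5 alone.

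Genes past 2 in FeD, 16, became 27 with an offset of 0 and 63 with processed signals. Genes past 1, 56, became 144 and 280. In FeO, 29 past 2 became 64 and 133, and 177 past 1 became 375 and 635. Past 1, leaving out 1 array gave 70 to 105 genes in FeD, where 105 came from array 2 alone, and 176 to 334 in FeO, where 334 came from array 4 alone. In FeD 32.1% of the genes past 1 were higher, 48.9% with processed signals and 63.8% from array 2 alone. In FeO 56.5% were higher, and 71.9% from array 4 alone.

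The methods' test at an unadjusted p left 7 genes past 2 and 20 past 1 in FeD, and 16 and 64 in FeO. After Benjamini-Hochberg adjustment it left 0, 0, 0 and 0, whereas limma's adjusted moderated test left 16, 53, 29 and 133. These tests compare RNA pools.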
